A study of Rattus norvegicus with 12 samples.

Results

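The 10 genes Etv1, Etv4, Cebpb, Maf, Creb5, Bcl11b, Meis1, Mycn, Per2 and Tfe3 encode transcriptional regulators that were differentially expressed when rat oligodendrocyte precursor cells (OPCs) met a cytokine cocktail. They were taken by symbol from the study's list of differentially expressed genes (DEGs) between cytokine-treated and control cultures, so they were chosen by their fold change and adjusted p in that comparison, whose values are given only as a description. Together they are 10 of the 1769 genes that could be given a symbol and of the 30562 genes in the count tables. All 10 passed the filter on low counts. Etv1 and Etv4 belong to the ETS family, Cebpb, Maf and Creb5 to the basic leucine zipper (bZIP) family, and the other 5 to several families.

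RNA was sequenced from 12 cultures of wild-type Sprague-Dawley rat cells, 3 in each of 4 groups. The cells came from the cortex of pups, at postnatal day 2 by the labels and at days 0 to 2 by the study's methods, pooled from males and females, and the OPCs were shaken off mixed glial cultures and moved to differentiating medium with thyroid hormone when treatment began. CTL cultures received neither agent. By the study's methods, an equivalent amount of the solvent DMSO was given in place of galinex. GAL cultures received 10 nM galinex, an agonist of GPR17, a receptor of maturing OPCs. CTK-2 cultures received IFN-γ, TNF-α and IL-1β, each of them at 2 ng/mL, and CTK2+GAL cultures received the same cytokines with 10 nM galinex added 6 h later. RNA was collected 24 h after the time of galinex addition. Nothing in the labels ties the replicates to separate litters or preparations, so the p-values measure the spread between these libraries only.

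ETS proteins bind DNA through a winged helix domain, and Etv1 and Etv4 form with Etv5 a subgroup whose transcription follows growth factor signalling through ERK. The bZIP proteins bind DNA as dimers held together by a leucine zipper: Cebpb acts in inflammatory and acute-phase responses, Maf in immune and lens cell differentiation, and Creb5 at cAMP response elements. TNF-α and IL-1β are known to act through NF-κB and MAP kinases, and IFN-γ through JAK kinases. In the oligodendrocyte lineage, inflammatory cytokines are known for slowing the passage from precursor to myelinating cell.

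Promoter sequences were at hand for 7 of the 10 genes, from RefSeq on the GRCr8 assembly, and 3 are shown because each holds a short element tied to a pathway described here. Each sequence is the 250 bases before the annotated start, 5′ to 3′ on the gene's strand, with the matched element in capitals. In Cebpb (chr3:176816755-176817004, plus strand) the capitals mark TGACGCA, a CRE-like element, which begins 61 bases before the start. In Per2 (chr9:99496994-99497243, minus strand) they mark CACGTT, the E′-box through which CLOCK and BMAL1 are known to drive Per2, which begins 62 bases before the start. In Tfe3 (chrX:17414686-17414935, minus strand) they mark a match to TTCNNNGAA, the GAS element bound by STAT dimers, which begins 140 bases before the start.
Cebpb: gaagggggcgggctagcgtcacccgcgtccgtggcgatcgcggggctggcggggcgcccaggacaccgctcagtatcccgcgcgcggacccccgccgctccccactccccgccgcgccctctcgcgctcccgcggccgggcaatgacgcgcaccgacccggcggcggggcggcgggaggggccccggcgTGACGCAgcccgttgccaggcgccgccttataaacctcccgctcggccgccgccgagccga
Per2: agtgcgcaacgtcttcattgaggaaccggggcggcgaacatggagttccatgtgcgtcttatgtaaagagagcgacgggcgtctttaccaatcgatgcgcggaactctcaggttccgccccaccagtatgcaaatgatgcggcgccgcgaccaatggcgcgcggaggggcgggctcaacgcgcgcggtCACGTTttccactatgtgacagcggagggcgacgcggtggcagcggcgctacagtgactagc
Tfe3: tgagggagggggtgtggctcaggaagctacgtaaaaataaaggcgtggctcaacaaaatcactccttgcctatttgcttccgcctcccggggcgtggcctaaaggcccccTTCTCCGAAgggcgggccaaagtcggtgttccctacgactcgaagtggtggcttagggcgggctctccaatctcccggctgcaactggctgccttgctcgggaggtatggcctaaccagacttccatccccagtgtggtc
The GAS letters occurred on either strand in 7.67% of 33469 promoters of the same length, the E′-box in 4.07% and the CRE-like element in 1.66%. The last 2 elements were chosen after the sequences had been seen. The other 7 elements searched on both strands, ISRE (GAAA, any 2 bases, GAAA), kappaB (GGGA, any 2 bases, TTCC), CEBP (TTGCNNAA), AP-1 (TGANTCA), CRE (TGACGTCA), E-box (CACGTG) and ETS (CCGGAAGT), were in 0 of the 7 promoters and in between 1.08% (kappaB) and 9.22% (CEBP) of all promoters. A match is a string of letters, and binding was not measured.

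Library totals ranged from 2600797 counts in GAL replicate 1 to 8978185 in a CTK2+GAL library, with group medians between 5329374 and 5908813. CTL replicate 3 and GAL replicate 3 stood apart from the other libraries without cytokines: the summed level of 12 cytokine-activated factors (STAT, IRF and NF-κB genes) was 1130 and 1040 CPM in them, against 246 to 278 CPM in the other 4 and 4120 to 4170 CPM in the 6 with cytokines. CPM is the count scaled by the library size after TMM normalization. Of the OPC markers, Pdgfra, Cspg4 and Ptprz1 had a symbol and summed to between 2240 and 2480 CPM in CTL and 3950 and 4220 CPM in CTK-2. The 5 myelin genes with a symbol went from between 2070 and 2400 CPM to between 870 and 976 CPM. Of 13 microglial and macrophage markers, 5 had a symbol, and their sum was 2.24 to 10.9 CPM in CTL, 3.1 to 10.7 in GAL, 19.8 to 26.6 in CTK-2 and 21.8 to 22.7 in CTK2+GAL. For neurons the 1 gene with a symbol of 8 listed was Tubb3 (81.7 to 89 CPM in CTL and 156 to 189 in CTK-2). For endothelium it was Kdr, of 8 listed (0.994 to 1.3 and 3.97 to 7.78), and for fibroblasts Col1a2, of 6 listed (0.688 to 1.59 and 6.36 to 7.97). For astrocytes it was Aldoc, of 8 listed, which went from 229 to 286 CPM to 154 to 158 CPM. Listed markers without a symbol have no value here. Every gene with a symbol had already been called by the study in CTK-2 versus CTL, so the markers shown were bound to change. Their shift is therefore not read as a shift of a cell type. All of these markers move with the changes below, and their part in them was not tested.

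Every one of the 10 genes was higher with cytokines, and in each the 6 libraries with cytokines lay above the 6 without, as did 17.1% of all 13348 tested genes. That separation includes the CTK-2 and CTL libraries whose comparison chose the genes, so it is only a description. The log2 fold changes (log2FC) in CTK-2 versus CTL ran from 0.79 for Per2 to 2.53 for Bcl11b, with a median of 1.09 where the median over all tested genes was near 0. All 10 passed the study's thresholds of an adjusted p of 0.05 and an absolute log2FC of 0.59 in that comparison, which chose them; of all tested genes 11.5% were higher and 5.79% lower at those thresholds, 17.3% in all. All 3 CTK-2 libraries lay above all 3 CTL libraries in the 10 genes and in 25.2% of all tested genes, from which nothing is read for genes so chosen. The comparison of CTK2+GAL with GAL uses the 6 libraries outside the comparison that chose the genes. It is not fully independent of that choice. The study's mean levels covered all 12 libraries, and the genes were chosen with earlier results of these data known. In CTK2+GAL versus GAL 9 of the 10 were called higher by edgeR's quasi-likelihood test, against 11.7% of all tested genes called higher and 17.4% called in either direction. The CTK2+GAL libraries all lay above the GAL libraries in 10 of 10, and in 25.5% of all tested genes. Their median log2FC was 1.08, against 0.01 over all tested genes. In bulk RNA, more cells of a type and more RNA per cell cannot be told apart.

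**Figure D1:**
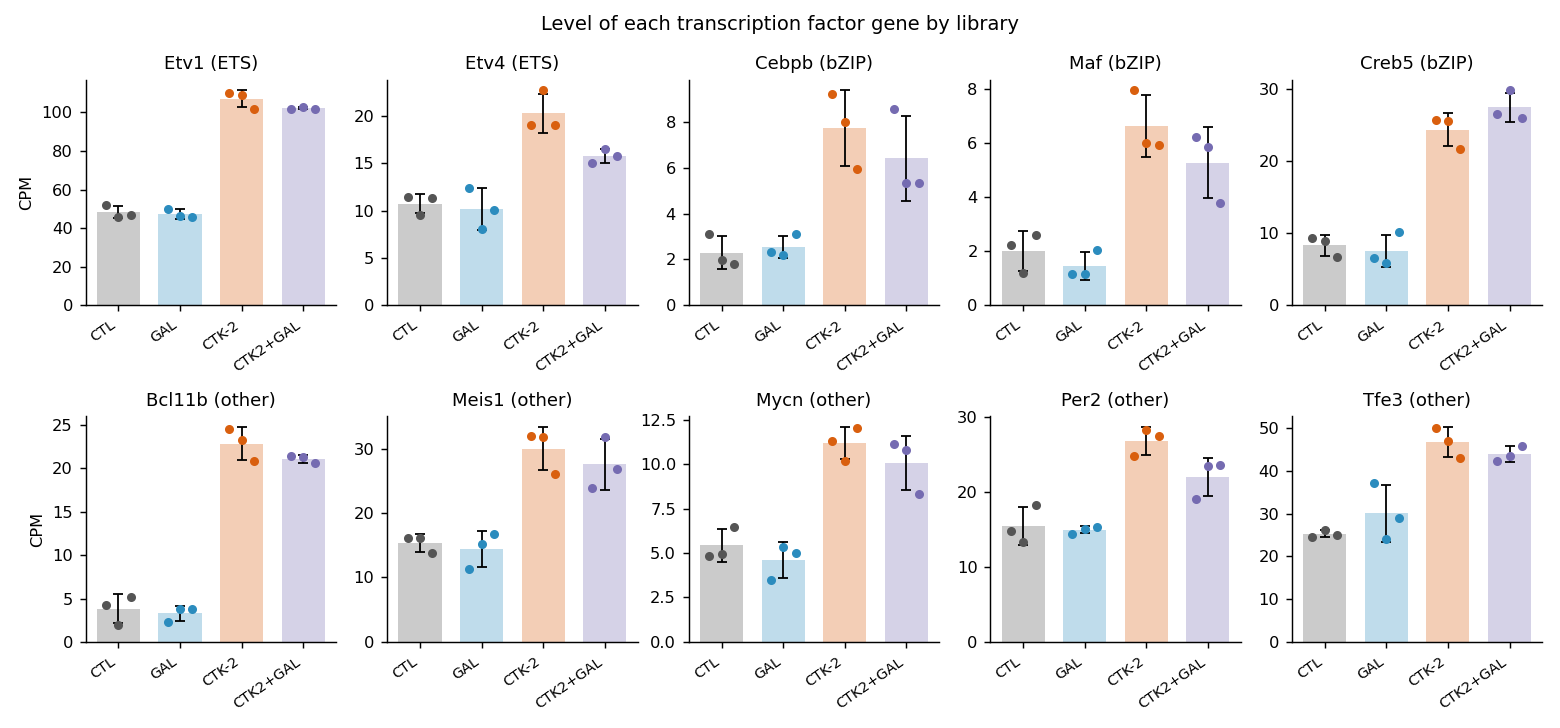
CPM of each gene (vertical axes, from 0) in the 4 groups. Points are the 3 libraries of a group in order of replicate number, bars are means and error bars are SD; in every panel the cytokine libraries lie above those without, with the narrowest gap in Per2, where CTL replicate 3 was at 18.2 CPM and the lowest CTK2+GAL library at 19.1 CPM.

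Etv1 (ENSRNOG00000006867, chromosome 6, 55590234 to 55681775 on the mRatBN7.2 build, plus strand), an ETS factor of ERK signalling, was the most abundant of the 10 in CPM. Its CPM was 52, 45.9 and 47 in CTL, 50, 46.2 and 45.7 in GAL, 110, 109 and 102 in CTK-2, and 102, 103 and 102 in CTK2+GAL. The cytokine libraries held about double the level, and the libraries with galinex lay close to those without. The log2FC was 1.14 (SE 0.065) in CTK-2 versus CTL. In CTK2+GAL versus GAL it was 1.13 (SE 0.067), a 2.19-fold rise with an adjusted p of 2.59e-10 in edgeR's test, the smallest of the 10.

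Etv4 (ENSRNOG00000020792, chromosome 10, 86706749 to 86721974, minus strand), of the same ETS subgroup, was lower and changed less. The CTL libraries had 11.4, 9.54 and 11.3 CPM and the GAL libraries 12.4, 8.04 and 10.1 CPM. With cytokines the values were 19, 22.7 and 19.1 CPM in CTK-2 and 15, 16.5 and 15.8 CPM in CTK2+GAL, so the 2 cytokine groups did not overlap. Its log2FC was 0.91 (SE 0.145) in CTK-2 versus CTL and 0.69 (SE 0.156, adjusted p = 0.00153, edgeR) in CTK2+GAL versus GAL. Without GAL replicate 2, its lowest library, the latter was 0.53 with an adjusted p of 0.0228 and fell short of the fold threshold.

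Cebpb (ENSRNOG00000057347, chromosome 3, 156397052 to 156399473, plus strand), the factor of inflammatory responses whose promoter is printed above, was at low counts. It had 18, 10 and 11 counts in CTL and 6, 13 and 18 in GAL, or 3.1, 1.99, 1.78, 2.33, 2.18 and 3.09 CPM. In CTK-2 the values were 9.2, 8 and 5.93 CPM, and in CTK2+GAL 8.55, 5.33 and 5.32 CPM. The groups with and without cytokines were apart, and the spread among the cytokine libraries was wide. The log2FC was 1.73 (SE 0.291) in CTK-2 versus CTL and 1.27 (SE 0.300, adjusted p = 0.00231, edgeR) in CTK2+GAL versus GAL.

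Maf (ENSRNOG00000012428, chromosome 19, 43360342 to 43712365, minus strand), a large Maf protein, had the fewest counts, between 3 (GAL replicate 1) and 16 without cytokines. Its level was 2.24, 1.19 and 2.59 CPM in CTL, 1.16, 1.17 and 2.06 CPM in GAL, 7.95, 6 and 5.93 CPM in CTK-2, and 6.22, 5.86 and 3.77 CPM in CTK2+GAL. No library with cytokines reached down to those without, although the lowest, CTK2+GAL replicate 3, was well below its group. The log2FC was 1.67 (SE 0.307) and, in CTK2+GAL versus GAL, 1.72 (SE 0.349, adjusted p = 0.000624, edgeR), the largest SE of the 10.

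Creb5 (ENSRNOG00000008622, chromosome 4, 82393730 to 82790325, plus strand), which binds cAMP response elements, was the best measured of the bZIP genes. CTL libraries had 9.29, 8.94 and 6.65 CPM, GAL libraries 6.6, 5.86 and 10.1 CPM, CTK-2 libraries 25.7, 25.6 and 21.7 CPM, and CTK2+GAL libraries 26.6, 29.8 and 26 CPM. It was the only one of the 10 whose CTK2+GAL libraries all lay above its CTK-2 libraries. Its log2FC was 1.56 (SE 0.169) in CTK-2 versus CTL and 1.83 (SE 0.172, adjusted p = 1.04e-07, edgeR) in CTK2+GAL versus GAL.

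Bcl11b (ENSRNOG00000005776, chromosome 6, 126834531 to 126928224, minus strand), a zinc finger protein of T cell and cortical neuron development that joins BAF chromatin remodelling complexes, showed the largest change. It was at 4.3, 1.99 and 5.19 CPM in CTL and 2.33, 3.85 and 3.78 CPM in GAL, the first GAL value resting on 6 counts. In CTK-2 it was at 24.5, 23.3 and 20.8 CPM, and in CTK2+GAL at 21.4, 21.3 and 20.6 CPM. The lowest CTK2+GAL library was 5.35 times the highest GAL library, the widest gap of the 10. The log2FC was 2.53 (SE 0.199) and, in CTK2+GAL versus GAL, 2.57 (SE 0.212), a 5.92-fold rise with an adjusted p of 1.8e-08 in edgeR's test.

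Meis1 (ENSRNOG00000004606, chromosome 14, 93155419 to 93294265, minus strand), a TALE homeodomain protein that binds DNA with HOX and PBX partners, had 16.2, 16.1 and 13.8 CPM in CTL and 11.3, 15.2 and 16.7 CPM in GAL. With cytokines it had 32, 31.8 and 26.1 CPM in CTK-2 and 23.9, 31.8 and 26.9 CPM in CTK2+GAL. The cytokine groups overlapped each other and neither reached the groups without. The log2FC was 0.97 (SE 0.139) and 0.88 (SE 0.143, adjusted p = 7.58e-05, edgeR) in the respective comparisons.

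Mycn (ENSRNOG00000051372, chromosome 6, 35717764 to 35723590, minus strand), a MYC protein that pairs with MAX and acts in growth and proliferation of precursor cells, had 4.82, 4.97 and 6.49 CPM in CTL, 3.49, 5.36 and 4.98 CPM in GAL, 11.3, 10.2 and 12 CPM in CTK-2, and 11.1, 10.8 and 8.31 CPM in CTK2+GAL. The change was nearly the same with and without galinex. It was 1.03 (SE 0.193) in CTK-2 versus CTL and 1.02 (SE 0.205, adjusted p = 0.000561, edgeR) in CTK2+GAL versus GAL, both as log2FC.

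Per2 (ENSRNOG00000020254, chromosome 9, 92007296 to 92049459, minus strand), a repressor in the circadian clock that acts through CLOCK and BMAL1 rather than by binding DNA itself, changed least. It had 14.8, 13.3 and 18.2 CPM in CTL, 14.4, 15.1 and 15.3 CPM in GAL, 24.7, 28.2 and 27.4 CPM in CTK-2, and 19.1, 23.4 and 23.5 CPM in CTK2+GAL. The groups with and without cytokines did not overlap, and neither did CTK-2 and CTK2+GAL. The log2FC was 0.79 (SE 0.127) in CTK-2 versus CTL. In CTK2+GAL versus GAL it was 0.56 (SE 0.133, 95% interval 0.30 to 0.82) with an adjusted p of 0.00231 in edgeR's test, so it passed on p and not on the fold threshold of 0.59. It was called with total counts in place of TMM (0.60) and without CTK2+GAL replicate 1 (0.64).

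Tfe3 (ENSRNOG00000009605, chromosome X, 14729550 to 14742571, minus strand), a helix-loop-helix factor of lysosome formation and nutrient sensing, lay close to the fold threshold as well. It had 24.6, 26.2 and 25.1 CPM in CTL and 37.2, 24.1 and 28.9 CPM in GAL, where the first library was the shallow one. The cytokine libraries had 50, 47.1 and 43 CPM in CTK-2 and 42.2, 43.5 and 45.9 CPM in CTK2+GAL. Its log2FC was 0.88 (SE 0.112) and, in CTK2+GAL versus GAL, 0.61 (SE 0.112, adjusted p = 0.000247, edgeR). That call was lost to the fold threshold without GAL replicate 2 (0.47, adjusted p = 0.00416), without CTK2+GAL replicate 3 (0.57) and with the least variable genes removed (0.58).

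Leaving out CTL replicate 3 and GAL replicate 3 together, a choice made after seeing the data, still gave 10 genes past the thresholds in CTK-2 versus CTL and 9 called in CTK2+GAL versus GAL. Those 2 libraries were not uniformly shifted towards the cytokine groups for these genes. CTL replicate 3 was above both other CTL libraries in 4 of the 10 (Bcl11b, Maf, Mycn and Per2) and below both in 3, and GAL replicate 3 was above both other GAL libraries in 5 (Cebpb, Creb5, Maf, Meis1 and Per2) and below both in 1. Without them the log2FC in CTK2+GAL versus GAL was 2.16 for Creb5, 2.10 for Maf and 1.48 for Cebpb, each higher than with them. In CTK-2 versus CTL the estimates of these genes moved both ways. With only CTL replicate 3 left out, the log2FC was lower for Cebpb (1.57) and Creb5 (1.41) and higher for Maf (1.90).

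The families shared a direction and differed in level and in size of change. The 2 ETS genes had log2FC of 0.91 and 1.14 in CTK-2 versus CTL and 0.69 and 1.13 in CTK2+GAL versus GAL. The 3 bZIP genes ran from 1.56 to 1.73 and from 1.27 to 1.83 in the same comparisons, so in both all bZIP estimates lay above all ETS estimates. In CTK2+GAL versus GAL that order rested on CTK2+GAL replicate 1, without which Cebpb (1.04) was below Etv1 (1.13). The 95% interval of Creb5 in CTK2+GAL versus GAL (1.49 to 2.16) lay above that of Etv1 (0.996 to 1.26) and that of Etv4 (0.389 to 0.999), whereas those of Maf (1.04 to 2.41) and Cebpb (0.68 to 1.86) overlapped that of Etv1. The other 5 genes spanned 0.56 to 2.57, with Bcl11b above both families and Per2 and Tfe3 below. Differences between genes were not tested.

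**Figure D2:**
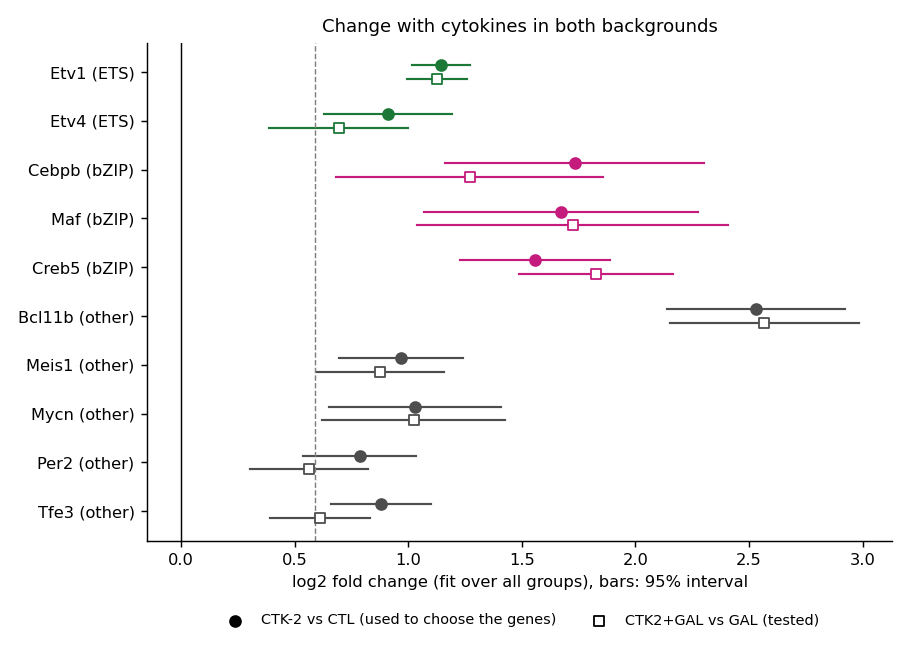
Log2 fold change with cytokines (horizontal axis, with 95% intervals) for the 10 genes, coloured by family, with filled circles for CTK-2 versus CTL and open squares for CTK2+GAL versus GAL. The dashed line is the fold threshold of 0.59; the bZIP genes (1.27 to 1.83 in the open squares) lie to the right of the ETS genes (0.69 and 1.13), Bcl11b (2.57) lies farthest right, and the open square of Per2 (0.56) is the only point left of the line.

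Levels were compared between genes as TPM, in which counts are divided by the exonic length of the gene and scaled to the same sum in every library. In CTL, Tfe3 (16.4 ± 0.984, SD, n = 3) and Etv1 (15.6 ± 2.14) led and overlapped, followed by Meis1 (9.41 ± 0.861) and Etv4 (8.6 ± 1.54), which overlapped each other. From Etv4 down, Per2 (5.74), Mycn (4.51) and Creb5 (4.23) continued a run in which each gene overlapped the next. Maf (2.44) and Cebpb (2.1) overlapped each other, and Bcl11b (1.15 ± 0.56) had the lowest mean, with libraries below those of Cebpb and overlapping those of Maf. Thus the 3 bZIP genes, at 2.1 to 4.23 TPM, were below both ETS genes, at 8.6 and 15.6 TPM. In CTK-2, Etv1 (35.5 ± 1.33) lay above Tfe3 (31.3 ± 2.39), and both lay above Meis1 (19.0) and Etv4 (16.6), which overlapped. Creb5 (12.8 ± 1.06) stood apart from its neighbours, and Per2 (10.2), Mycn (9.54), Maf (8.15), Cebpb (7.23) and Bcl11b (6.9) each overlapped the next. Bcl11b, with the lowest mean in CTL, therefore overlapped Cebpb in CTK-2. In CTK2+GAL, Creb5 (14.2 ± 1.12) and Etv4 (12.6 ± 0.394) overlapped, whereas Etv4 lay above Creb5 in the other 3 groups.

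**Figure D3:**
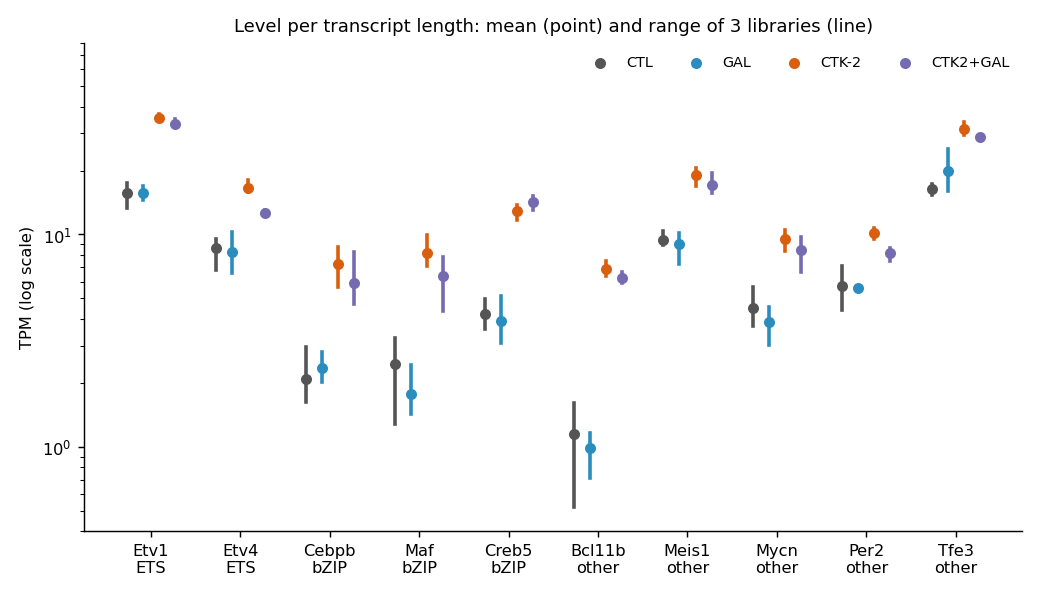
TPM of the 10 genes (vertical axis, log scale) in the 4 groups, with points for means and lines for the range of 3 libraries. The ETS genes (8.6 and 15.6 TPM in CTL) lie above the bZIP genes (2.1 to 4.23 TPM in CTL) except in CTK2+GAL, where Creb5 (14.2 TPM) has a higher mean than Etv4 (12.6 TPM), and Bcl11b starts lowest at 1.15 TPM and reaches 6.9 TPM in CTK-2.

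The next question was whether galinex moved these genes, alone or on top of the cytokines. In GAL versus CTL, 0 of the 10 were called by edgeR, where 0% of the 13348 tested genes were called, and 0 had an unadjusted p under 0.05 (4.3% of all tested genes did). DESeq2 also called 0 of the 10. The CTL libraries in this comparison also served to choose the genes. The log2FC ran from −0.42 for Maf (95% interval −1.25 to 0.41) to 0.19 for Tfe3 (−0.05 to 0.43). The GAL and CTL libraries overlapped for all 10, but the overlap was not counted over all tested genes and nothing is read from it. For Etv1 the interval was −0.19 to 0.10, the narrowest, and those of Maf and Cebpb (−0.56 to 0.89), the genes with the fewest counts, were the widest. Same-numbered CTL and GAL libraries deviated together, most of all those of replicate 3. A fit of those 6 CTL and GAL libraries with the replicate number as a block also called 0 of the 10.

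In CTK2+GAL versus CTK-2 edgeR and DESeq2 again called 0 of the 10, and edgeR called 0% of all tested genes. The CTK-2 libraries are shared with the comparison that chose the genes. The estimates were below 0 for 9 of the 10, with a median of −0.15 against a median near 0 over all tested genes. Genes chosen as high in those CTK-2 libraries can lean below 0 here by that choice, so nothing is read from this count or median. Etv4 was 20.3 ± 2.11 CPM in CTK-2 and 15.8 ± 0.773 CPM in CTK2+GAL (SD, n = 3), a log2FC of −0.36 (95% interval −0.62 to −0.10) with an unadjusted p of 0.014 and an adjusted p of 1 in edgeR's test. Per2 was 26.8 ± 1.84 and 22 ± 2.55 CPM, a log2FC of −0.27 (−0.50 to −0.04) with an unadjusted p of 0.0322 and an adjusted p of 1 in the same test. These were the 2 genes of the 10 with an unadjusted p under 0.05, as 4.08% of all tested genes had, and neither passes adjustment. Creb5 was the 1 gene above 0, at 0.17 (−0.10 to 0.44). The CTK2+GAL and CTK-2 libraries overlapped for the remaining 7 genes. The share of all tested genes with such overlap was not counted, so nothing is read from the overlap or its absence.

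**Figure D4:**
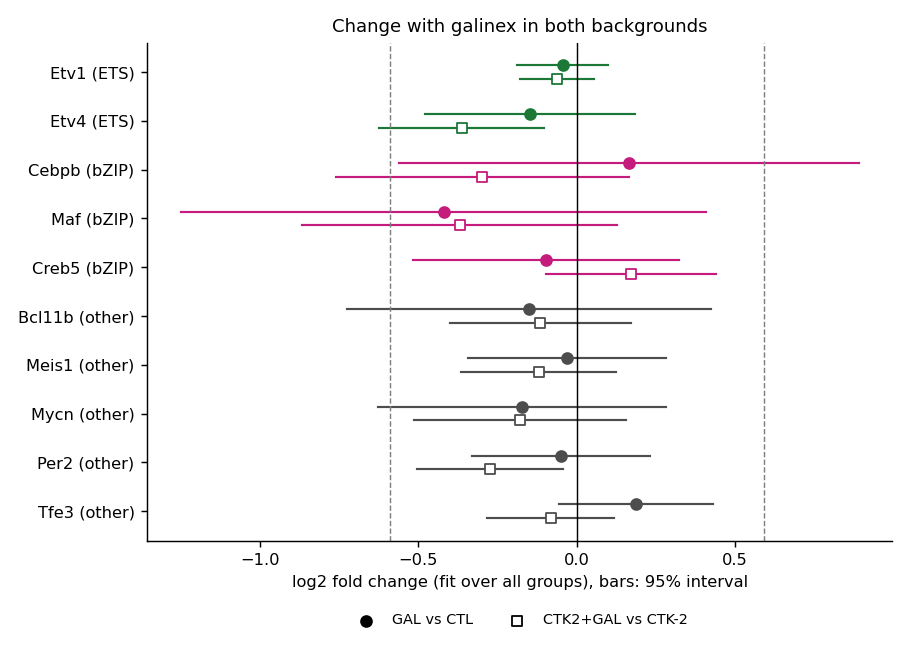
Log2 fold change with galinex (horizontal axis, with 95% intervals) for the 10 genes, with filled circles for GAL versus CTL and open squares for CTK2+GAL versus CTK-2. Dashed lines mark 0.59 in either direction; the intervals cross 0 except for the open squares of Etv4 (−0.36) and Per2 (−0.27), and 0 of the genes were called.

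Whether the cytokine change itself differed with galinex was asked by the interaction of the 2 treatments, which contains the comparison that chose the genes. edgeR called 0 of the 10 and 0% of all tested genes, with 0 of the 10 under an unadjusted p of 0.05 (2.82% of all tested genes were), and DESeq2 called 0 of the 10. The differences of log2FC ran from −0.46 for Cebpb (95% interval −1.32 to 0.40) to 0.27 for Creb5 (−0.23 to 0.77). Tfe3 had the smallest unadjusted p, 0.109 in edgeR's test, at −0.27 (−0.58 to 0.04). For Etv1 the interval was −0.20 to 0.17.

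Relatives of these genes were counted from 11 lists of family members and pathway genes. Every gene with a symbol here had already been called by the study in CTK-2 versus CTL, so a relative without a symbol has no value and the counts lean towards change. Of the 246 listed genes 63 had a symbol, and in CTK2+GAL versus GAL 46 were called higher, 11 lower and 6 were not called by edgeR. Over all tested genes 11.7% were called higher and 5.74% lower. Of 26 other ETS genes 4 had a symbol, and 3 were called higher. Ets1, which acts in immune and endothelial cells, went from 41.4 ± 8.13 CPM in GAL to 107 ± 9.79 in CTK2+GAL (SD, n = 3; log2FC 1.31), and Elk3, an ETS repressor with a serum response factor partner, from 6.22 ± 0.808 to 11.5 ± 1.14 CPM (0.83). Etv5, the third member of the Etv1 and Etv4 subgroup, was at 42.4 ± 5.44 and 56.1 ± 6.36 CPM (0.42, adjusted p = 0.00601, edgeR) and stayed under the fold threshold. Spi1, the myeloid ETS factor counted among the microglial markers above, had 1 count in all GAL libraries and 35 in all CTK2+GAL libraries.

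Of 49 other bZIP genes 11 had a symbol, of which 9 were called higher and 2 lower. Jun, a subunit of AP-1, went from 32.5 ± 2.41 to 117 ± 1.74 CPM (log2FC 1.87), and Jund from 65.8 ± 4.81 to 147 ± 0.793 CPM (1.17). Creb3l2, a membrane-bound factor of the endoplasmic reticulum, was among those that fell (−0.69). In the MiT/TFE family the relatives moved against Tfe3: Tfeb fell from 60.4 ± 5.5 to 30.5 ± 3.21 CPM (−0.997) and Mitf from 46.5 ± 3.51 to 23 ± 3.24 CPM (−0.99). Both proteins can pair with Tfe3 on DNA. Of 29 lysosome and nutrient genes tied to this family 3 had a symbol and all 3 were called higher: Gpnmb (2.85), a glycoprotein of lysosome-rich cells, Rragd (1.08), a GTPase of nutrient sensing, and Hexa (0.60), a lysosomal hydrolase.

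The 3 TALE genes with a symbol were all called higher, namely Meis2 (0.87) and Meis3 (0.65), relatives of Meis1, and the repressor Tgif1 (2.25). In the MYC and MAX network the 1 gene with a symbol was Mxd1, a MAX partner that opposes MYC, which rose from 34.8 ± 1.49 to 73.1 ± 6.57 CPM (1.08), beside the rise of Mycn. Among the partners of Bcl11b in BAF complexes Smarca2, an ATPase subunit, rose from 80.6 ± 9.12 to 170 ± 9.95 CPM (1.10), and Smarcd2 rose by less (0.65). Of the clock genes 2 had a symbol. Arntl, which encodes BMAL1, was at 54.2 ± 2.74 and 73.7 ± 6.12 CPM (0.43, adjusted p = 0.000314, edgeR) and stayed under the fold threshold, and Nr1d1, a repressor of Arntl, fell from 18.5 ± 2.17 to 9.46 ± 1.85 CPM (−0.89).

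**Figure D5:**
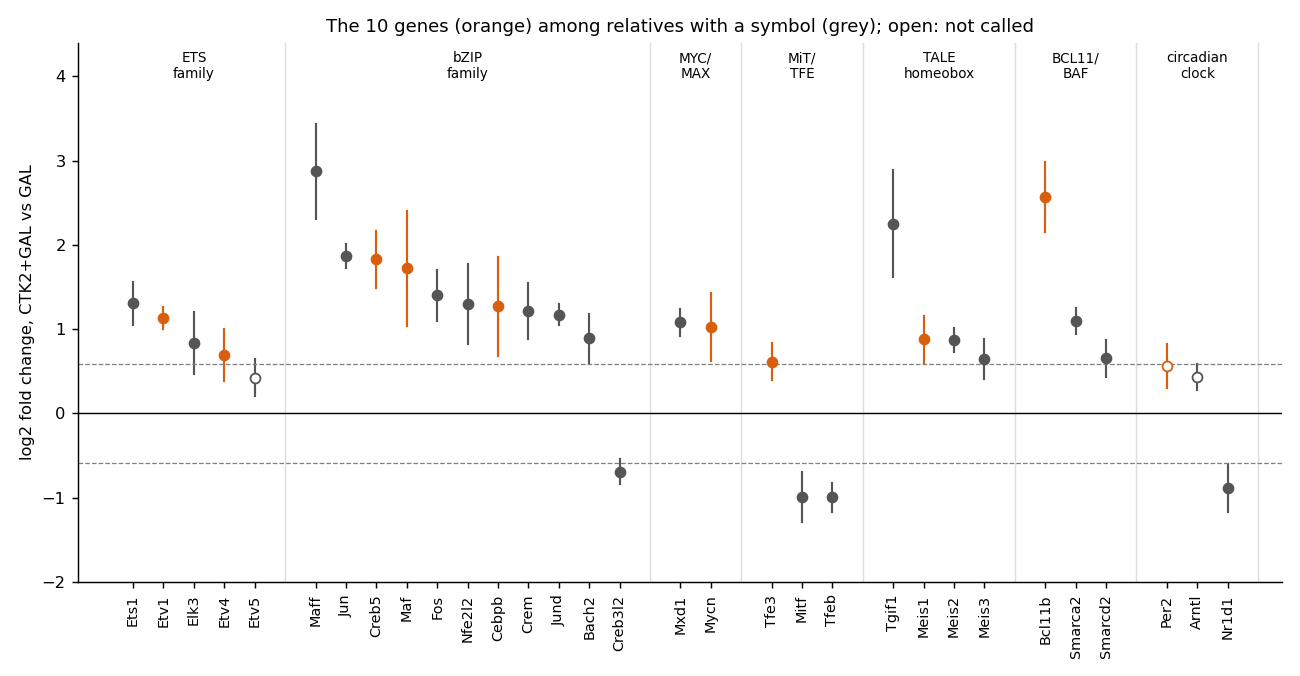
Log2 fold change in CTK2+GAL versus GAL (vertical axis, with 95% intervals) of the 10 genes in orange and of relatives with a symbol in grey, filled where called. Spi1, Batf2 and Batf3 are not drawn because their GAL libraries held 1 count for each gene, and not every relative is drawn; Tfeb (−0.997) and Mitf (−0.99) lie below 0 while Tfe3 (0.61) lies above, and Nr1d1 (−0.89) lies below 0 beside Per2 (0.56).

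Among 18 genes induced by ERK signalling or feeding back on it, the pathway of the Etv1 and Etv4 subgroup, 10 had a symbol: 6 were called higher, 1 lower and 3 were not called. Spry1, an inhibitor of receptor tyrosine kinase signalling, rose from 9.41 ± 1.24 to 46.3 ± 5.46 CPM (2.26), and Phlda1 rose from 16.4 ± 0.926 to 42.9 ± 3.22 CPM (1.39). Dusp7, a phosphatase of ERK, fell from 280 ± 15.2 to 118 ± 5.45 CPM (−1.24). All 12 cytokine-activated factors with a symbol were called higher, with a median log2FC of 3.09, above the log2FC of each of the 10 genes. Of these, Relb rose from 3.54 ± 1.16 to 33.8 ± 0.42 CPM (3.35) and Nfkb2 from 2.78 ± 0.463 to 24.3 ± 1.55 CPM (3.12), both of the non-canonical NF-κB pathway. Irf1 (4.51) rose with a large SE of 0.768, its GAL value being 24.3 ± 35.5 CPM. Of 14 oligodendrocyte lineage factors with a symbol 7 were called higher, 5 lower and 2 were not called. The SOX genes Sox11 (1.84), Sox3 (1.82) and Sox8 (0.63) and the homeobox gene Nkx2-2 (0.79) were among those that rose. Those that fell were Zeb2 (−0.68, from 1040 ± 28 to 645 ± 15.8 CPM), Zfp488 (−0.62, from 227 ± 9.23 to 148 ± 10.2 CPM), the helix-loop-helix inhibitors Id1 (−0.87) and Id2 (−0.79), and St18 (from 5.02 ± 1.61 to 1.23 ± 0.52 CPM).

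The profiles of the 10 genes over the 12 libraries resembled each other, with Pearson correlations of log2 CPM from 0.74 to 0.97 over 45 pairs. These share the libraries and the split by cytokines that chose the genes, so they describe that split. The gene with a symbol whose centred profile lay nearest was Rmdn3 for Etv1, Ephb3 for Etv4, Prox1 for Cebpb, Ptpn5 for Maf, Inpp1 for Creb5, Heg1 for Bcl11b, Sh3kbp1 for Meis1, Asph for Mycn, Hps1 for Per2 and Limd2 for Tfe3, by Euclidean distance over 12 libraries. The correlations of these pairs were 0.949 to 0.995.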

How the data were processed

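RNA was measured in 12 libraries, 3 in each of 4 groups. The deposited values are raw counts of read pairs per gene. The paper names FastQC and STAR, and per the file headers featureCounts 2.0.0 counted reversely stranded pairs with both ends mapped on exons of Ensembl release 112 (mRatBN7.2), leaving out chimeric, multi-mapping, multi-gene and marked duplicate pairs, so near-identical genes lose counts.

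The 13348 genes whose mean count reached 5 were normalized by TMM and fitted in edgeR 4.0.16 (R 4.3.3, limma 3.58.1) by the quasi-likelihood model with a mean per group, with Benjamini-Hochberg adjustment over all of them. The SE is the absolute log2FC divided by the root of F, and 95% intervals are normal intervals from it. DESeq2 1.42.0 was an alternative, beside other scalings, filters, sample sets, the replicate block and each library left out. Symbols came from matching mean level and log2FC of the study's table of DEGs to the counts: 1769 of 1786 entries found 1 gene, 99.9% of 1750 pairs with a chromosome in both annotations lay on the same one, and of 893 entries not used for fitting the match 883 were found. After the signs of the log2FC were reversed, 12 still matched. Of the table's own values only these served, for the match.

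The members and lists were chosen with earlier results of these data known. Named genes were the 10 members, up to 4 genes of each list by adjusted p and by TPM, and the gene nearest to each member in profile. Creb3l2, Id1, Id2, Zfp488, St18, Zeb2, Spi1, Batf2 and Batf3 were named after their values were seen, and some listed genes are not reported here by name. Tested on simulated data for CTK2+GAL versus GAL with 13348 genes, the calls recovered 93% of 2-fold and 100% of 4-fold changes, with 10 of the unchanged genes called. Depth gives the precision of low counts, and the SE covers it together with the spread between libraries. Same-numbered CTL and GAL libraries deviated together (correlations 0.258 to 0.596 in 3 pairs), with the highest value in replicate 3. CTL and GAL libraries of unlike number had correlations from −0.436 to 0.233 in 6 pairs, the upper end close to the lowest same-numbered value. In the other pairs of groups the 15 same-numbered correlations lay between −0.003 and 0.071.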

Additional observations from a re-analysis of the deposited data

How the results depend on the processing

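The 10 genes past the thresholds in CTK-2 versus CTL stayed 10 under every alternative run, and the counts of 0 called in GAL versus CTL, in CTK2+GAL versus CTK-2 and in the interaction stayed 0 in all of those run for them. In CTK2+GAL versus GAL the 9 calls became 8 once the least variable 15% of genes were removed, 10 with total counts or with no fold threshold, and 7 (without GAL replicate 2) to 10 (without CTK2+GAL replicate 1) when 1 library was left out. With the replicate block, that is the replicate number as a term for all 12 libraries, the counts were 10, 9, 0, 0 and 0 of the 10 genes and 57 of the relatives, the same as without it, and it changed no call of the 10 genes. The 57 relatives called ranged from 54 (DESeq2) to 62 (no fold threshold), and from 54 to 58 with 1 library left out. A fit of the 6 GAL and CTK2+GAL libraries alone gave 9 genes and 57 relatives. Across settings 0 estimates of the 10 genes changed direction, and those that crossed the fold threshold were Per2, Tfe3 and Etv4, the cause not tested. Depth limits Maf and Cebpb most, whose libraries without cytokines held 3 to 18 counts.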
